A study of Homo sapiens with 9 samples.

Results

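The hairpins hsa-mir-7-1, hsa-mir-7-2 and hsa-mir-7-3 are the 3 human gene copies that yield the microRNA miR-7-5p. They were found in the hairpin count table by name and make up 3 of its 1485 hairpins. Small RNAs had been sequenced from 2 cell lines transfected with small interfering RNAs (siRNAs) against ERH or with control siRNAs. HEK293E, a line derived from HEK293 human embryonic kidney cells, received the control siRNAs siGFP or siControl or the ERH siRNA siERH-3 in replicates 1 and 2, and the ERH siRNA siERH-5 in replicate 2, which gave 7 libraries. These cells were transfected with lipid on days 0 and 3 and harvested on day 5. K562, a leukaemia line with erythroid features, received siGFP or siERH-5 by electroporation in 1 library each and was harvested on day 4 after transfection. Cell line, transfection method and time to harvest therefore cannot be told apart.

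A microRNA is cut out of a long primary transcript in the nucleus by Microprocessor, a complex of the nuclease DROSHA and the double-stranded RNA-binding protein DGCR8. ERH is a small conserved protein known to bind DGCR8. miR-7 is an ancient microRNA, abundant in neurons and in endocrine cells of the pituitary and pancreas, and represses messenger RNAs such as those of EGFR and IRS2. Its main locus, MIR7-1, lies in the widely transcribed gene HNRNPK, yet non-neural cells are known to hold mature miR-7 low because the proteins HuR and MSI2 bind the hairpin loop and restrain cleavage by Microprocessor, whereas the splicing factor SRSF1 is known to promote it.

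The mature sequences show why the copies cannot be told apart by their main product. The 5p strand and both 3p strands are printed 5′ to 3′ with the seed (bases 2 to 8, which pair with targets) in capitals, as given by RefSeq for GRCh38.p14.
hsa-miR-7-5p: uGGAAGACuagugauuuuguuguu
hsa-miR-7-1-3p: cAACAAAUcacagucugccaua
hsa-miR-7-2-3p: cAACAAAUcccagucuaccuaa
The seed of miR-7-5p occurred under no other name among the 2370 mature names of the RefSeq table. The 3p strands of MIR7-1 and MIR7-2 share their seed and differ at 4 of 22 bases, which are A10C, G17A, A20U and U21A, counted from the 5′ end with the base of miR-7-1-3p first. Reads of these 3p strands can in principle be told apart, while reads of the 24-base miR-7-5p cannot be assigned to a copy.

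The hairpins of MIR7-2 and MIR7-3 are printed next, with annotated mature strands in capitals, to show how little they share outside miR-7-5p.
MIR7-2: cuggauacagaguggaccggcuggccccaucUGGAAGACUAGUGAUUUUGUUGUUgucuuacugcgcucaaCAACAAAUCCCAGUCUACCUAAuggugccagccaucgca
MIR7-3: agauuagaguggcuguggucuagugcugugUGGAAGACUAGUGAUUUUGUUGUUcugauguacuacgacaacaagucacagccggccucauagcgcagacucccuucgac
Their longest common run was 24 bases and was exactly miR-7-5p, and 67 of 110 bases were identical in a global alignment. The predicted fold of MIR7-2 had an energy of -47.0 kcal/mol and that of MIR7-3 -38.0 kcal/mol, each with 34 unpaired bases. Per nucleotide, MIR7-3 was weaker-folded at -0.346 kcal/mol than the median hairpin at -0.469 kcal/mol, with 88.8% of 1479 annotated hairpins lower in energy. MIR7-2 lay nearer the middle, at -0.427 kcal/mol and 65.5% of hairpins. GC content was ordinary in both, at 50.9% and 49.1% against a median of 50.8%. The motif UGUG, a known Microprocessor feature when in the loop, was searched on the hairpin strand with overlapping matches counted. It occurred 3 times in MIR7-3, each time starting before the end of miR-7-5p and not on the loop side, and not in MIR7-2, and 45.6% of hairpins hold it anywhere.

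In GENCODE release 29 (GRCh38), MIR7-1 lies at chr9:83969748-83969857 on the minus strand, inside HNRNPK at chr9:83968083-83980616. Of the 11 annotated HNRNPK transcripts, 7 span the hairpin. It is intronic in 6 of them and lies in an untranslated part of the transcript HNRNPK-208. MIR7-2 lies at chr15:88611825-88611934 on the plus strand. On the opposite strand the hairpin MIR3529 overlaps it at chr15:88611847-88611924, and on the same strand MIR1179 lies at chr15:88608107-88608197, 3627 bases upstream. MIR7-3 lies at chr19:4770670-4770779 on the plus strand and is intronic in 9 of the 10 transcripts of the long non-coding RNA gene MIR7-3HG at chr19:4769140-4772533.

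Libraries held between 2609929 and 3320017 hairpin counts. ERH messenger RNA is not part of a small RNA library, so its knockdown could not be checked here. The labelled lines were checked against marker hairpins. The summed level of 4 erythroid hairpins was 1834 to 3063 reads per 1000000 (RPM) in HEK293E and 65062 to 70744 in K562. The summed level of the blood hairpins mir-142 and mir-223 was 80.6 to 372 in HEK293E and 79066 to 79141 in K562. A set of 4 epithelial hairpins summed to 370 to 660 RPM in HEK293E and to 224 to 318 in K562, and none of the markers was at 0 in either line. These sums follow library totals, and the small epithelial gap was not checked under another scaling. Nothing in the labels says that replicates were separate cultures, so p-values measure the spread between these libraries, which may be technical. Replicate numbers match the experimental groups in the labels.

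The 3 hairpins carried nearly the same number of counts in every library. In HEK293E replicate 1, hsa-mir-7-1, hsa-mir-7-2 and hsa-mir-7-3 held 38317, 37536 and 37554 counts with siGFP, 21992, 21240 and 21239 with siControl, and 37813, 36015 and 36031 with siERH-3. In replicate 2 they held 18199, 16697 and 16700 counts with siGFP, 18368, 16516 and 16515 with siControl, 36508, 33717 and 33744 with siERH-3, and 37772, 35196 and 35306 with siERH-5. In K562 they held 5405, 4887 and 4887 counts with siGFP and 10868, 10188 and 10194 with siERH-5. Counts of hsa-mir-7-2 and hsa-mir-7-3 differed by between 0 and 110. If each read had been given at random to either copy, the difference would have had a standard deviation of 98.9 to 274 counts, and the observed one was at most 0.414 of it. How reads that fit several copies were counted is not given in the sources used here. The 3 hairpins are not independent measurements, and the output of MIR7-2 or MIR7-3 alone was not measured.

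miR-7 was an abundant microRNA in HEK293E and a less abundant one in K562. In HEK293E, hsa-mir-7-1 took 0.599% to 1.22% of all hairpin counts and ranked 20th to 47th of 1485. In K562 it took 0.207% with siGFP and 0.327% with siERH-5 and ranked 77th and 62nd. Deposited RPM of hsa-mir-7-1 was 11790 and 6969 with siGFP (replicates 1 and 2), 7327 and 5985 with siControl, 12233 and 11748 with siERH-3 and 11637 with siERH-5. In K562 it was 2067 with siGFP and 3272 with siERH-5. Both K562 libraries lay below all 7 HEK293E libraries.

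**Figure D1:**
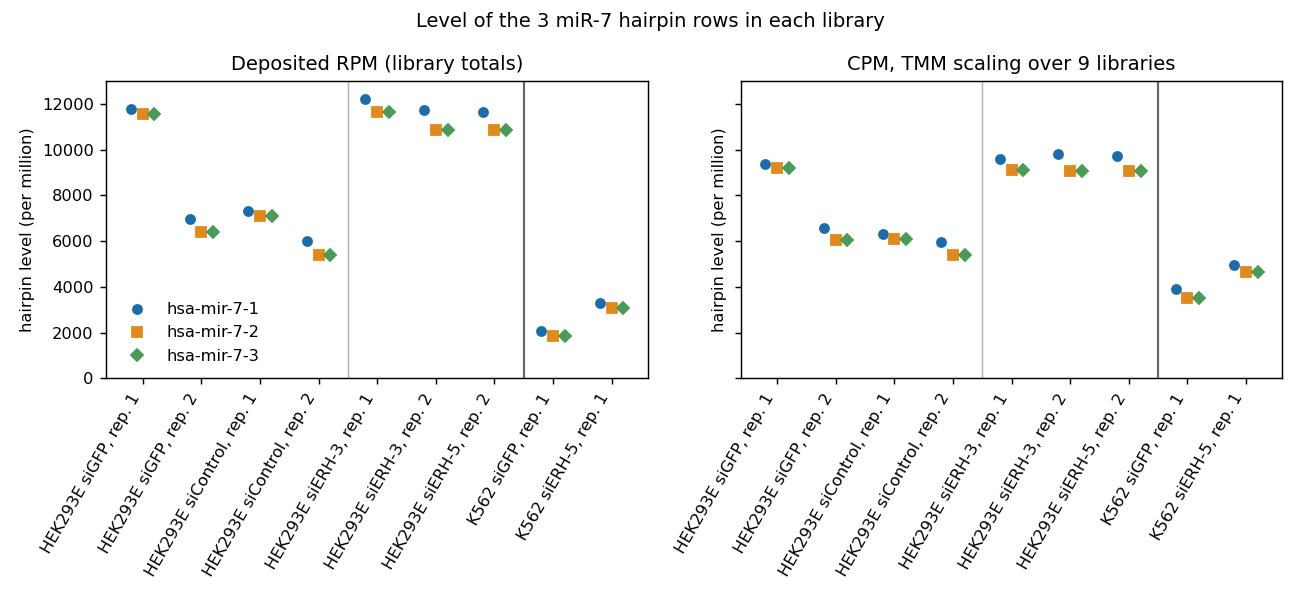
Level of the 3 miR-7 hairpins in each of the 9 libraries, as deposited RPM (left) and as CPM after TMM scaling over all libraries (right), 1 point per hairpin and library. The thin line separates control from siERH libraries of HEK293E and the thick line sets off K562. The 3 hairpins nearly coincide everywhere, siGFP replicate 1 lies with the siERH libraries, and K562 lies lowest under both scalings.

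The size of the gap between lines depended on the scaling. TMM, which sets library scale by the bulk of hairpins instead of the library total, gave K562 factors of 0.53 and 0.66 against 1.00 to 1.28 in HEK293E. On deposited RPM, the mean of the 4 HEK293E controls was 8018 ± 2578 (SD, n = 4) against 2067 in K562 with siGFP, 3.88-fold. On TMM-scaled CPM (counts per 1000000), it was 7064 ± 1556 (SD, n = 4) against 3894, 1.81-fold. A fit over all 9 libraries with terms for line and siERH gave hsa-mir-7-1 a log2 difference of -0.91 (SE 0.19, adjusted p = 0.00108, edgeR) in K562 against HEK293E. In that fit 35.2% of the 790 hairpins were lower in K562 and 64.1% differed in either direction. On library totals the difference was -1.91, where the median over all hairpins moved from -0.20 to -1.18. The fit assumes that the lone K562 libraries vary like those of HEK293E. Without K562 siGFP, the call held for hsa-mir-7-1 (-0.84, adjusted p = 0.0354) and was lost for hsa-mir-7-2 (adjusted p = 0.0501). After removal of a trend on GC content, hsa-mir-7-2 was at -0.46 (adjusted p = 0.0525), also lost, with the median over all hairpins at 0.15. When this correction was combined with the block on replicate number, it held at -0.61 (adjusted p = 0.00807), as did hsa-mir-7-3 at -0.63 (adjusted p = 0.00726).

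The main comparison of the design asked how microRNA levels differ when ERH is targeted. In HEK293E, hsa-mir-7-1 was at 10948 and 7675 CPM with siGFP (replicates 1 and 2), 7725 and 6983 with siControl, 11210 and 11139 with siERH-3 and 10731 with siERH-5, after TMM scaling within this line. The 3 siERH libraries lay close together and above 3 of the 4 control libraries. siGFP replicate 1 lay among them, so the groups overlapped. Means were 8333 ± 1776 CPM in controls (SD, n = 4) and 11027 ± 258 with siERH (SD, n = 3). The spread was thus mostly in the controls.

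Against all 4 controls, the change of hsa-mir-7-1 was 1.32-fold, or 0.40 on the log2 scale (SE 0.17, adjusted p = 0.0868 by edgeR's quasi-likelihood test), and did not pass the adjusted threshold of 0.05. hsa-mir-7-2 (0.39, adjusted p = 0.123) and hsa-mir-7-3 (0.39, adjusted p = 0.121) did not pass either. None of the 3 hairpins was called, where 40.0% of the 773 hairpins tested were called in either direction, 23.8% as higher (184) and 16.2% as lower (125). On library totals these counts were 212 higher and 67 lower, and with a GC trend removed 123 higher and 154 lower. Siting hsa-mir-7-1 among all hairpins, its change exceeded that of 65.2% of them, and the groups did not overlap for 44.6% of hairpins but did for all 3 copies. On library totals the change was 0.57 (adjusted p = 0.0569), with the median over all hairpins at 0.19 instead of -0.01.

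With replicate number as a block, the change of hsa-mir-7-1 passed the threshold at 0.45 (SE 0.14, adjusted p = 0.0166), as did hsa-mir-7-2 (0.46, adjusted p = 0.0187) and hsa-mir-7-3 (0.46, adjusted p = 0.0186). In this fit 28.1% of hairpins were called higher and 48.6% in either direction. Within replicate 2, hsa-mir-7-1 with siERH-3 was 1.45 times its siGFP and 1.60 times its siControl level, and with siERH-5 1.40 and 1.54 times. Within replicate 1, siERH-3 was 1.45 times siControl and 1.02 times siGFP. So 5 of the 6 within-replicate ratios, which share libraries, rounded to 1.40 or more. The ratio to siGFP of replicate 1 was near 1. Replicate 2 alone gave 0.62 (adjusted p = 0.000463, with 23.6% of hairpins called higher), and replicate 1, which holds 1 siERH library, was not tested alone. Without siGFP replicate 1 the change against all other controls was 0.56 (adjusted p = 0.00536), where 24.5% of hairpins were called higher.

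The outcome also turned on which control was used. Against the siControl libraries alone, hsa-mir-7-1 changed by 0.55 (adjusted p = 0.0232), and against siGFP alone the value was 0.23 (adjusted p = 0.436). Hairpins called higher made up 18.3% against siControl alone and 17% against siGFP alone. With the block these values were 0.57 (adjusted p = 0.00328, with 25.3% of hairpins called higher) and 0.29 (adjusted p = 0.188, with 19.8%). The 2 controls were therefore set against each other. siControl against siGFP gave hsa-mir-7-1 -0.35 (SE 0.28, adjusted p = 0.959, edgeR), and 0 of 730 hairpins were called by edgeR, with 24 at an unadjusted p under 0.05. DESeq2 called 4 and limma 0. Without siGFP replicate 1 this value was -0.05. With the replicate block it was -0.33 (SE 0.11, adjusted p = 0.0199), a call, in a fit where 18.2% of hairpins differed between the controls, 9.86% higher and 8.36% lower with siControl. With so few libraries, that fit takes its spread mostly from all hairpins together. With a GC trend also removed, calls fell from 133 to 39. There hsa-mir-7-2 was at -0.36 (adjusted p = 0.183, edgeR) and hsa-mir-7-3 at -0.38 (adjusted p = 0.165), not calls. In each replicate the siControl level of hsa-mir-7-1 was below its siGFP level, by a wider margin in replicate 1.

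**Figure D2:**
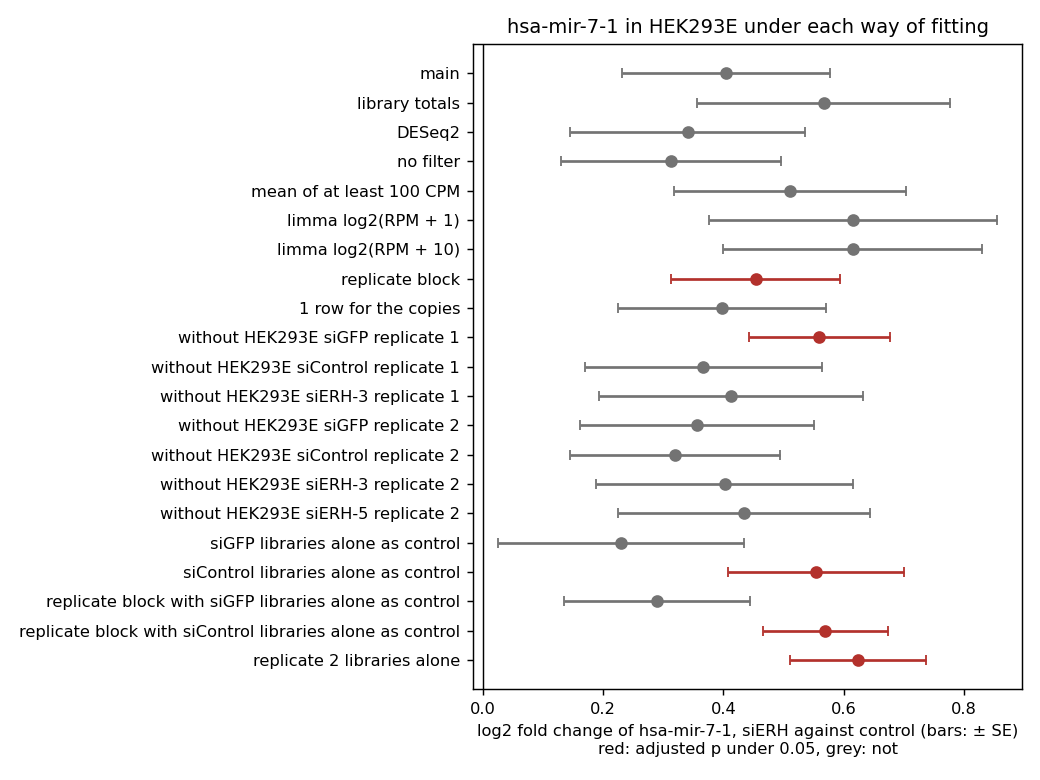
Log2 fold change of hsa-mir-7-1 in siERH against control libraries of HEK293E (x axis) under each fit (rows), with bars of ± SE. Every value is above 0, from 0.23 to 0.62, and the red points, which passed an adjusted p of 0.05, are 5 of the 20 alternatives.

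siERH-3, the ERH siRNA with 2 libraries, was also compared by itself with the 4 controls it shares with the comparison above. hsa-mir-7-1 was at 0.43 (SE 0.21, adjusted p = 0.148), not a call, where 30.6% of 759 hairpins were called, 19.1% higher and 11.5% lower. With the block it was at 0.45 (adjusted p = 0.0425), a call, where 45.1% were called, 26.4% higher and 18.7% lower. siERH-5 has 1 library in HEK293E and no replicate check. Its hsa-mir-7-1 level of 10731 CPM lay just below the 11139 CPM of siERH-3 in the same replicate, a smaller gap than that between the 2 siGFP libraries.

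In K562, with 1 library for each siRNA and no test, hsa-mir-7-1 was at 2282 CPM with siGFP and 2970 CPM with siERH-5 after scaling these 2 libraries by TMM. The log2 ratio was 0.38, with an exact 95% binomial interval of 0.33 to 0.43 that covers counting error only. hsa-mir-7-2 and hsa-mir-7-3 were each at 0.43. The median of 646 hairpins was 0.11, and 65.9% of hairpins had a lower ratio than hsa-mir-7-1. On library totals hsa-mir-7-1 was at 0.66 and the median hairpin at 0.37. The difference of the siERH change between the lines was -0.11 (SE 0.37, adjusted p = 0.978, edgeR interaction term), where 0.506% of 790 hairpins were called. It was 0.10 on library totals, so not even its sign was settled. The HEK293E side of this difference pools both ERH siRNAs and both controls, while K562 has siERH-5 and siGFP alone. Its fit also assumes that the lone K562 libraries vary like those of HEK293E.

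**Figure D3:**
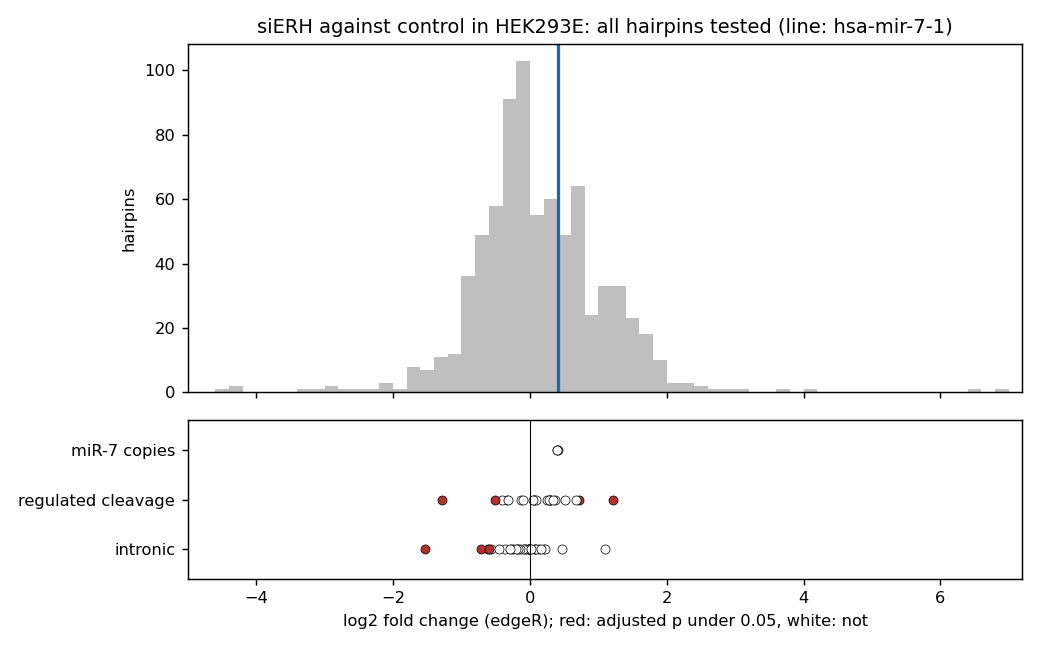
Distribution of log2 fold changes of the 773 hairpins tested in HEK293E (top, 0.2 per bar; the line is hsa-mir-7-1 at 0.40), and the members of each list as points on the same axis (bottom; red passed an adjusted p of 0.05). The 3 miR-7 copies overlap as 1 white point on the upper side of the bulk, inside the range of both lists.

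hsa-mir-7-1 held more counts than hsa-mir-7-2 in every library, and this excess was not the same share everywhere. In replicate 1 of HEK293E the excess was 781 counts with siGFP (2.04% of the hsa-mir-7-1 count), 752 with siControl (3.42%) and 1798 with siERH-3 (4.75%). In replicate 2 it was 1502 with siGFP (8.25%), 1852 with siControl (10.1%), 2791 with siERH-3 (7.64%) and 2576 with siERH-5 (6.82%). In K562 it was 518 counts with siGFP (9.58%) and 680 with siERH-5 (6.26%). All replicate 2 shares lay above all replicate 1 shares in HEK293E, whichever siRNA was used. Which reads make up the excess was not tested, since the table does not separate the strands of a hairpin.

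Per 1000000 library counts, the excess was 240 with siGFP, 251 with siControl and 582 with siERH-3 in replicate 1. In replicate 2 it was 575, 604, 899 and 794 with siGFP, siControl, siERH-3 and siERH-5. Within each HEK293E replicate, every siERH library was above every control library. The share of all hairpins that separate in this way was not counted. On library totals the median over all hairpins was itself at 0.19 for siERH against control. K562 had an excess of 198 with siGFP and 205 with siERH-5. As a row of its own, chosen after its values were seen, the excess in HEK293E was at 0.63 on the log2 scale (SE 0.38, adjusted p = 0.216, edgeR), not a call. With the replicate block it was at 0.61 (SE 0.19, adjusted p = 0.0165), a call. In the block fit without this row, 28.1% of hairpins were called higher and 48.6% in either direction.

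**Figure D4:**
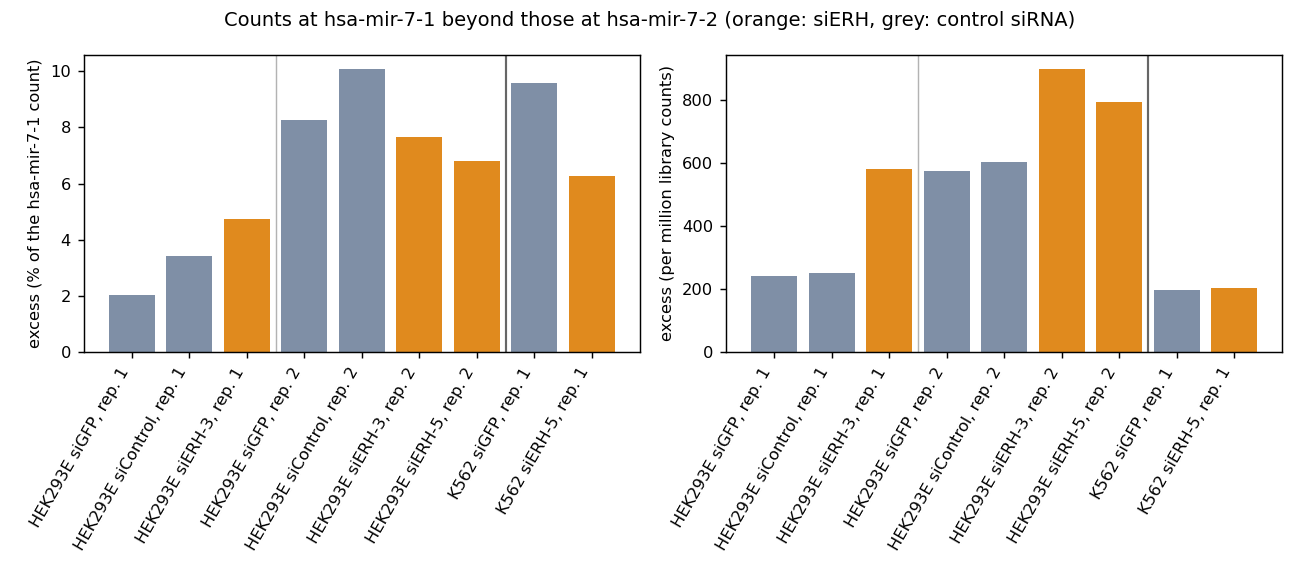
Counts at hsa-mir-7-1 beyond those at hsa-mir-7-2 in each library, as a percentage of the hsa-mir-7-1 count (left) and per 1000000 library counts (right); bars are single libraries, orange with siERH and grey with control siRNA. In HEK293E the percentages split by replicate, 2.04% to 4.75% in replicate 1 and 6.82% to 10.1% in replicate 2, and on the right the siERH bars are tallest within each replicate.

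The ratio of copies within a library is free of library scaling. The log2 ratio of hsa-mir-7-1 over hsa-mir-7-2 was 0.089 ± 0.059 in controls (SD, n = 4) and 0.096 ± 0.023 with siERH (SD, n = 3). The difference of 0.006 was smaller than either SD (two-sided exact permutation test over 35 splits, p = 0.914, the same after adjustment over 3 pairs of copies). Over the 18 splits within replicates, the difference was -0.006 (exact permutation p = 0.722, smallest possible 0.0556). The ratio also moves with the shared count: siGFP and siControl of replicate 1 had nearly the same excess (781 and 752 counts) and log2 ratios of 0.030 and 0.050. The ratio of hsa-mir-7-2 over hsa-mir-7-3 gave p = 0.114 in the same exact permutation test (adjusted p = 0.343).

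The hairpins beside and over MIR7-2 were read as possible signs of that locus. hsa-mir-1179, the upstream hairpin on the same strand, held 32, 34 and 59 counts in replicate 1 with siGFP, siControl and siERH-3. In replicate 2 it held 36, 55, 58 and 65 with siGFP, siControl, siERH-3 and siERH-5, and in K562 3 and 5 with siGFP and siERH-5. It thus held at most 65 counts in any library. Its siERH value in HEK293E was 0.33 (SE 0.28, adjusted p = 0.369), not a call, and -0.059 with a GC trend removed. It was lower in K562 than in HEK293E by a log2 difference of -2.64 (adjusted p = 0.00029).

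hsa-mir-3529, whose hairpin overlaps MIR7-2 on the opposite strand, held 0, 6 and 1 counts in replicate 1 with siGFP, siControl and siERH-3. In replicate 2 it held 0, 9, 2 and 1 counts with siGFP, siControl, siERH-3 and siERH-5, and it was at 0 in both K562 libraries, which allows up to 3 counts each. The highest counts were in both siControl libraries. The hairpin was under the filter of a mean of 10 counts and was not tested. Its 3p strand is shown because it is the exact reverse complement of miR-7-5p.
hsa-miR-3529-3p: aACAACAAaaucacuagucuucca
Whether counting used strand is not given in the sources used here. hsa-mir-3529 held at most 9 counts in libraries where hsa-mir-7-2 held at least 4887.

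Regulated cleavage is known for other hairpins as well, and 23 of them were taken as a list, with the let-7 family (bound by LIN28), mir-18a (helped by hnRNP A1), mir-143 and mir-145 (helped by p53 with DDX5) and mir-15a (helped by its neighbour mir-16-1). Of these, 22 were tested, 2 were lower, 2 were higher and 18 did not pass, where 16.2% of all hairpins were lower and 23.8% higher, with a median log2 change of 0.17 against -0.01 over all hairpins. mir-15a fell by 1.28 on the log2 scale (SE 0.20, adjusted p = 0.000768), from 8927 ± 2038 CPM (SD, n = 4) to 3680 ± 265 (SD, n = 3). mir-143 rose by 1.22 (SE 0.31, adjusted p = 0.0107) and mir-145 by 0.72 (SE 0.23, adjusted p = 0.0284), both at low levels. mir-143 was at 28.3 and 21.5 CPM with siGFP and 62.5 and 39.9 with siControl (replicates 1 and 2). With siERH it was at 88.8 ± 1.4 CPM (SD, n = 3). mir-145 was at 21.8 ± 4.6 CPM in controls (SD, n = 4) and 35.9 ± 5.3 with siERH (SD, n = 3). mir-98, a let-7 family member, fell by 0.52 (SE 0.18, adjusted p = 0.0388). The value of the miR-7 copies, 0.40, lay between the list's extremes. The list counts copies of the same microRNA, such as those of let-7a, as separate hairpins, so its members are not all independent measurements. On library totals the list had 1 lower and 7 higher calls, against 67 and 212 of all 773 hairpins. The call of mir-15a held in 22 of 22 alternatives and that of mir-143 in 20 of 21. The call of mir-145 held in only 12 of 21 alternatives and that of mir-98 in only 7 of 21. Among the fits without 1 library, mir-145 lost its call without siGFP replicate 1 (0.58), siERH-3 replicate 1 (0.72), siGFP replicate 2 (0.69) or siERH-5 replicate 2 (0.65). In those fits mir-98 lost its call without any of the HEK293E libraries other than siGFP replicate 1, at -0.53 to -0.45.

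Hairpins carried in introns of protein-coding genes, as hsa-mir-7-1 is in HNRNPK, were taken as a further list of 32, all tested. Of these, 4 were lower, 0 were higher and 28 did not pass, beside the same 16.2% lower and 23.8% higher over all hairpins, with a median of -0.07 against -0.01 over all hairpins. mir-425 fell by 1.53 (SE 0.15, adjusted p = 5.32e-05), from 5526 ± 428 CPM (SD, n = 4) to 1919 ± 147 (SD, n = 3), with groups that did not overlap, and held in 22 of 22 alternatives. mir-33b (-0.72, adjusted p = 0.0396) and mir-33a (-0.62, adjusted p = 0.0109), carried by the sterol regulator genes SREBF1 and SREBF2, and mir-378a (-0.60, adjusted p = 0.0310) were the other calls. Levels of mir-33b were 1068 and 784 CPM with siGFP and 607 and 500 with siControl (replicates 1 and 2). With siERH they were 422 to 501 CPM, so its groups overlapped. Calls held in 9 of 22 alternatives for mir-33b, 18 of 22 for mir-33a and 14 of 22 for mir-378a. hsa-mir-7-1, at 0.40, lay above the list's median and below its highest value of 1.10. Copies of the same microRNA count separately in this list too. On library totals 1 was lower and 1 higher, against 67 and 212 of all 773 hairpins. With the replicate block 8 were lower and 1 higher, where 20.6% and 28.1% of all hairpins were. The call of mir-33a was lost without siERH-3 replicate 1 (-0.49). That of mir-33b was lost without siGFP replicate 1 (-0.49), siGFP replicate 2 (-0.70), siERH-3 replicate 1 (-0.65), siERH-3 replicate 2 (-0.68) or siERH-5 (-0.79). That of mir-378a was lost without siControl replicate 1 (-0.55), siERH-3 replicate 2 (-0.53) or siERH-5 (-0.53).

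Hairpins whose levels followed hsa-mir-7-1 over the libraries were ranked by the root mean square difference of log2(CPM + 1), each centred on its mean over the 9 libraries. Among 420 hairpins the median difference was 0.83. hsa-mir-7-2 and hsa-mir-7-3, which share its reads, were at 0.039 and 0.040. Next came mir-629 at 0.13, mir-2278 at 0.22, mir-2110 at 0.23, mir-548e at 0.23 and mir-625 at 0.24. In all, 9 hairpins other than the copies lay within 0.3. The points share libraries and scaling, so the ranking is a description.

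mir-629 was at 3262 and 2830 CPM with siGFP (replicates 1 and 2), 2933 and 2754 with siControl, 4133 and 4492 with siERH-3 and 4327 with siERH-5. Unlike hsa-mir-7-1, its siGFP replicate 1 library lay with the other controls and the groups did not overlap. It rose by 0.55 (SE 0.14, adjusted p = 0.00978), and its call was lost with no filter on low counts (0.46, adjusted p = 0.0599) or with siGFP alone as control (0.49, adjusted p = 0.0704). None of mir-2278 (0.34, adjusted p = 0.280), mir-2110 (0.36, adjusted p = 0.254), mir-548e (0.30, adjusted p = 0.234) and mir-625 (0.25, adjusted p = 0.196) was called. With a GC trend removed, mir-548e was at -0.34. Without siGFP replicate 1, mir-2110 was called at 0.58 (adjusted p = 0.0331).

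**Figure D5:**
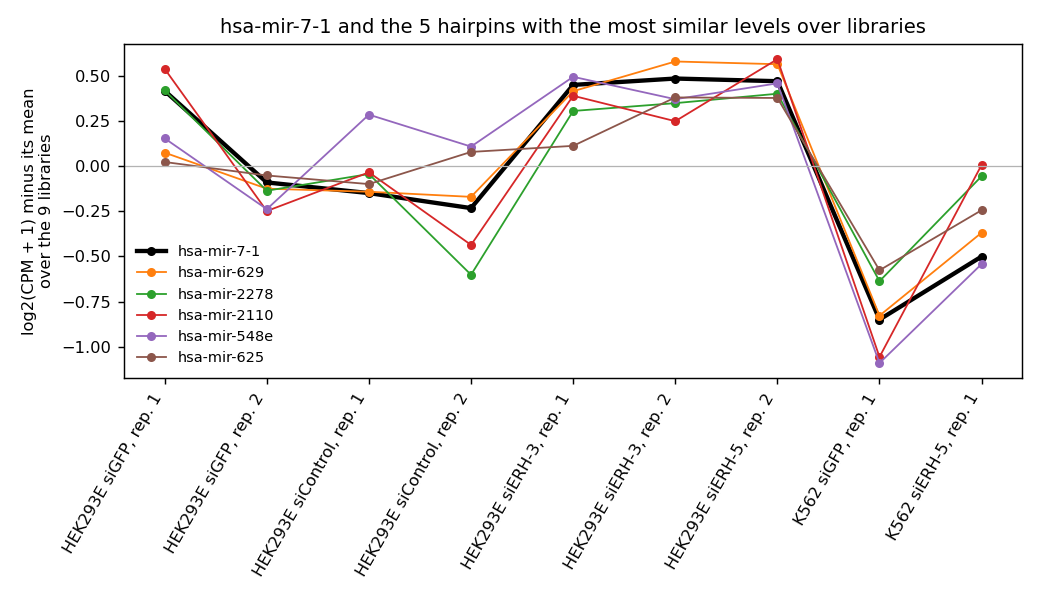
Log2(CPM + 1) of hsa-mir-7-1 (thick black) and the 5 hairpins most like it (coloured), each centred on its mean over the 9 libraries on the x axis. All lines are highest in HEK293E libraries and lowest in K562 with siGFP, and hsa-mir-7-1 and mir-629 part mainly at siGFP replicate 1.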

How the data were processed

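Per the labels' protocols, 18 to 30 nt RNA was gel-purified from total RNA with 30 spike-in RNAs added, and ligated to adapters with random bases. The authors deposited raw counts per hairpin (2336 blank cells, read as 0) and RPM, which recomputed as count plus 1 over total plus 1485, per 1000000. Per the submitters' processing notes, cutadapt, Bowtie2, bedtools and hg38 were used; the annotation and the rules on strand and multiply mapped reads are not given in the sources used here. Spike-ins were not used here, so changes are relative to other hairpins.

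Counts were tested with edgeR 4.0.16 (quasi-likelihood, TMM, mean of at least 10 counts, Benjamini-Hochberg adjusted p under 0.05) in R 4.3.3. Alternatives used DESeq2 1.42.0, limma 3.58.1 on log2(RPM + 1 or 10), library totals, other filters or controls, a GC trend removed, left-out libraries and a replicate block. The numbers pair the HEK293E libraries, since the labels' experimental groups match them; deviations correlated at 0.463 to 0.672 between siRNAs. Named hairpins were the 3 copies, their neighbours, the 3 largest calls of each list and the 5 hairpins most like hsa-mir-7-1. mir-98 and mir-378a were named after their values were seen. Members and lists were chosen with earlier results of these data known. RNAfold 2.7.2 gave folding energies. Scripts were tested on simulated data.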

Additional observations from a re-analysis of the deposited data

How the results depend on the processing

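The siERH value of the copies in HEK293E stayed above 0 in every alternative run. It passed the threshold in 5 of 20 for hsa-mir-7-1 (0.23 to 0.62), 6 of 21 for hsa-mir-7-2 and 5 of 21 for hsa-mir-7-3. Values of hsa-mir-7-1, hsa-mir-7-2 and hsa-mir-7-3 that passed were 0.45, 0.46 and 0.46 with the replicate block, 0.55, 0.56 and 0.56 against siControl alone, 0.57, 0.59 and 0.59 with both (added after seeing the data), and 0.62, 0.65 and 0.66 in replicate 2 alone. hsa-mir-7-2 also passed with the block and a GC trend removed (0.41). Leaving out 1 library gave 0.32 to 0.56, 0.29 to 0.57 and 0.29 to 0.57, and calls only without siGFP replicate 1. For siERH-3 the values that passed were 0.45, 0.44 and 0.44 with the block, 0.61, 0.62 and 0.62 with the block against siControl alone, and 0.59, 0.60 and 0.60 without siGFP replicate 1. In replicate 2 alone siERH-3 has 1 library against 2, assumed to vary like the controls, with values of 0.64, 0.67 and 0.67 past the threshold. Leaving out 1 library gave 0.36 to 0.59, 0.33 to 0.60 and 0.33 to 0.60. siControl against siGFP passed with the block alone, at -0.33, -0.35 and -0.35, and without 1 library ran from -0.60 to -0.05, -0.67 to -0.02 and -0.67 to -0.02, a lone library being assumed to vary like the rest.

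K562 against HEK293E kept its sign. hsa-mir-7-2 (-0.46) and hsa-mir-7-3 (-0.46) lost the call with a GC trend removed and kept it with the block as well, and leaving out 1 library gave -0.93 to -0.82, -0.96 to -0.84 and -0.96 to -0.84. The interaction turned positive on library totals (0.10, 0.17 and 0.17), with no filter (0.041, 0.11 and 0.11), with limma at a pseudocount of 1 (0.047, 0.11 and 0.10) or 10 (0.045, 0.10 and 0.10), and for the last 2 copies at a mean of at least 100 CPM (0.032 and 0.031). Leaving out 1 library gave -0.29 to 0.016, -0.25 to 0.10 and -0.26 to 0.10, positive without siControl replicate 2; leaving out a K562 library leaves no such term. In K562, library totals and RPM gave 0.66 for hsa-mir-7-1, 0.71 for hsa-mir-7-2 and 0.72 for hsa-mir-7-3 alike.

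Lower hairpins numbered 67 on library totals, 45 at a mean of at least 100 CPM, 58 and 59 with limma at pseudocounts of 1 and 10, 188 with the block and a GC trend removed, and 76 to 130 without 1 library, with 77 and 76 without siERH-3 replicate 1 or 2. Higher hairpins numbered 38 at a mean of at least 100 CPM and 136 to 189 without 1 library; fewer hairpins are tested at that minimum. The regulated list had 8 calls on library totals, 2 with no filter, 1 at a mean of at least 100 CPM, 8 with the block and a GC trend removed, 1 against siControl alone and 2 to 6 without 1 library. The intronic list had 2 on library totals, at a mean of at least 100 CPM and with limma at either pseudocount, 9 with the block, 11 with the block and a GC trend removed, 10 with the block against siControl alone, 10 in replicate 2 alone and 2 to 6 without 1 library. Of all 773 hairpins, 67 were lower and 212 higher on library totals, and 159 and 217 with the block. In those fits 22 and 32 list hairpins were tested. List counts under the other settings stand without a share over all hairpins, so their movement is no result about the lists. The siERH minus control difference in the log2 ratio of hsa-mir-7-1 over hsa-mir-7-2 was -0.0062 with the block and -0.014 to 0.028 without 1 library. For hsa-mir-7-1 over hsa-mir-7-3 the difference was -0.0079 with the block and -0.016 to 0.026 without 1 library. With a GC trend removed, without and with the block, mir-1179 was at -0.059 and -0.10 and mir-548e at -0.34 and -0.25. The excess ran from 0.40 to 0.89 without 1 library, the lowest without siGFP replicate 1. hsa-mir-7-1 was not part of the GC fits. Where values turned or moved, the cause was not tested. With 3 libraries against 4, an exact permutation p cannot go below 0.0286.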
